A study of Mus musculus with 8 samples.

Results

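The Tmem132 family of the mouse has 5 genes, Tmem132a, Tmem132b, Tmem132c, Tmem132d and Tmem132e, and all 5 were found among the 39017 genes of the count table by matching Ensembl identifiers to these symbols. The family was selected on a measured value, the higher counts of Tmem132b in the mutant libraries, which were already known. The difference of Tmem132b between the groups is therefore a description, given with no p-value, and its place past a threshold follows from the choice of the family, and the remaining members entered by name alone.

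The libraries came from tdTomato-labelled cells sorted from the hand-dissected cochlear nucleus, the hindbrain station where auditory nerve fibres end, of C57BL/6 embryos at E18.5. Mutant embryos carried Math1::Cre, the Rosa tdTomato reporter, and conditional (fl) alleles of the hindbrain patterning genes Hoxa2 and Hoxb2. The sample titles give them as Hoxa2+/fl; Hoxb2fl/fl, whereas the design text describes both genes as homozygous fl/fl, and the labels do not settle which holds. Wild type embryos carried the same Cre and reporter, with no conditional Hox allele in their titles. There were 4 mutant and 4 wild type libraries, each from 30000 sorted cells of 3 pooled littermates, with a different mother for every sample. Math1, also called Atoh1, drives Cre in the rhombic lip lineage, so only cells with that history were labelled and targeted.

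TMEM132 proteins span the membrane once. Their large extracellular part holds immunoglobulin-like domains next to a cohesin-like domain, and from this architecture they have been proposed to act in neural cell adhesion. TMEM132A binds the chaperone GRP78 and the Wnt carrier Wntless, and its loss in mice disturbs closure of the caudal neural tube. TMEM132B has been described as a partner of GABA-A receptors in the mouse brain. The worm member of the family acts through the WAVE complex, which activates the actin nucleator Arp2/3, in shaping neurons. Human TMEM132D has been linked to panic disorder and TMEM132E to hereditary deafness.

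Of the members, 3 lie on chromosome 5 in mm10 (GENCODE release M21). Tmem132b (ENSMUSG00000070498) spans 125531774 to 125792583 on the plus strand, Tmem132c (ENSMUSG00000034324) 127241808 to 127565793 on the plus strand, and Tmem132d (ENSMUSG00000034310) 127781630 to 128433077 on the minus strand. Tmem132e (ENSMUSG00000020701) lies on chromosome 11 from 82388900 to 82446332 on the plus strand, and Tmem132a (ENSMUSG00000024736) on chromosome 19 from 10857822 to 10869940 on the minus strand. The genes of chromosome 5 are the long ones, with 260810, 323986 and 651448 bases for Tmem132b, Tmem132c and Tmem132d, against 57433 for Tmem132e and 12119 for Tmem132a. The largest number of exons in an annotated transcript is nevertheless similar, 9 for Tmem132b, Tmem132c and Tmem132d, 10 for Tmem132e and 11 for Tmem132a. Annotated transcripts of different members shared no stretch of 25 bases in 9 of the 10 pairs, and Tmem132c and Tmem132d shared 34 such stretches, which leaves little sequence through which reads of different members could be confused.

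RefSeq promoter sequence (GRCm38.p6) was at hand for 3 members, and the 250 bases before each RefSeq start site are printed because they set the member that chose the family beside 2 that did not pass the test. Capitals mark the longest unbroken run of C and T. The windows are chr5:125532168-125532417 for Tmem132b, chr5:127241576-127241825 for Tmem132c and chr11:82388650-82388899 for Tmem132e, all on the plus strand. The RefSeq start of Tmem132b lies inside the GENCODE span of the gene given above, downstream of its start, so its window lies within that span.
Tmem132b: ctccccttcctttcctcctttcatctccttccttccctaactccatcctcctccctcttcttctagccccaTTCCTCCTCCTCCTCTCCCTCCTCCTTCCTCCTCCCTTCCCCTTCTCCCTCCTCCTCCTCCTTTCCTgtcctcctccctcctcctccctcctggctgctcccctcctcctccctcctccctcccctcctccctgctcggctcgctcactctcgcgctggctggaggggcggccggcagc
Tmem132c: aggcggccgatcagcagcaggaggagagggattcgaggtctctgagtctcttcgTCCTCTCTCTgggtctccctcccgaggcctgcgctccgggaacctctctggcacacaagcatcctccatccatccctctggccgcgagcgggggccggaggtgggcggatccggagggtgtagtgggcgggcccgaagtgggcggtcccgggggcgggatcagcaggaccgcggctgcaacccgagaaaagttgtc
Tmem132e: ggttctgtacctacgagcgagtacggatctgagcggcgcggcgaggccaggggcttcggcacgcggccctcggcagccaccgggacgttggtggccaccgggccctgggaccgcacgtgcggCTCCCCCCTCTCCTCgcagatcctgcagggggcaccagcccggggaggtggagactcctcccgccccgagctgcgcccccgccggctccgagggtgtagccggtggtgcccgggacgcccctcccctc

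The Tmem132b window was 86.8% C and T, against 47.2% for Tmem132c and 52.4% for Tmem132e, and 99.99% of the 32851 mouse promoter windows of this length had a lower share. Its longest C and T run was 67 bases, from 179 to 113 bases before the start site, and only 16 of the 32851 windows (0.0487%) held a run as long. The runs of Tmem132c and Tmem132e had 10 and 15 bases, lengths reached by 39.1% and 9.21% of windows. CpG pairs numbered 6 in Tmem132b, 21 in Tmem132c and 28 in Tmem132e. Neither strand of any of the 3 windows held TGATNNAT (a Hox and Pbx core), TGACAG (a Meis core), TAATTA (a homeodomain core) or the E-box CAGCTG, motifs present in 7.68%, 15.9%, 4.84% and 13% of all windows. These letters are described only for the window printed.

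Total counts ranged from 26299105 to 51118195 in mutant and from 24789043 to 40050010 in wild type libraries, which are numbered as in the table, mutant 1 to 4 and wild type 5 to 8. Of the targeted genes, Hoxb2 had 6.81, 3.82, 3.77 and 5.67 CPM (counts scaled to library size, here with TMM factors) in mutant 1 to 4 and 37.4, 46.6, 37.5 and 38.9 CPM in wild type 5 to 8, a fall of 3.00 on the log2 scale (edgeR adjusted p = 3.76e-05). Hoxa2 did not pass, with 26.7 ± 15.7 CPM in mutant and 43.2 ± 10.99 CPM in wild type libraries (SD, n = 4 each; log2 fold change -0.70, edgeR adjusted p = 0.506). Among 11 markers of excitatory and Atoh1-lineage neurons 1, Nhlh1, fell and 10 did not pass, where 0.215% of tested genes passed as lower. The groups did not overlap for 2 of the 11, against 6.17% of tested genes. Besides Nhlh1 this was Barhl2, at 69.5 CPM in mutant and 111 CPM in wild type libraries (edgeR adjusted p = 0.123). The summed level of the 11 was 6089 to 8656 CPM in mutant and 5913 to 7328 CPM in wild type libraries. Summed levels in mutant and wild type libraries were 45.02 to 105 and 31.8 to 59.1 CPM for 7 inhibitory neuron markers, 76.9 to 86.5 and 73.3 to 105 CPM for 9 oligodendrocyte lineage markers, and 195 to 469 and 311 to 430 CPM for 7 astrocyte and radial glia markers. The sums were 10.6 to 16.4 and 14.7 to 19.98 CPM for 6 microglia markers, 7.65 to 21.1 and 10.7 to 26.2 CPM for 6 endothelial and mural markers, 4.58 to 6.91 and 3.62 to 8.67 CPM for 3 erythroid markers, and 7.17 to 18.3 and 2.78 to 11.2 CPM for 4 hair cell markers. Beyond Nhlh1, only the microglia marker C1qa passed among these markers, at 0.203 CPM in mutant and 2.36 CPM in wild type libraries (edgeR adjusted p = 0.0115). The microglia sum was mostly Csf1r, at 11.4 CPM in mutant and 10.9 CPM in wild type libraries. P2ry12 and Cx3cr1 had 0.557 and 0.302 CPM in mutant libraries, against 2.32 and 1.57 CPM in wild type libraries, and did not pass (edgeR adjusted p = 0.0900 and 0.186). The erythroid marker Hba-a1 had no count in any library.

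All 5 members were expressed and passed the filter on low counts. Tmem132b was higher in every mutant library than in any wild type library, whereas the mutant and wild type ranges of Tmem132a, Tmem132c, Tmem132d and Tmem132e overlapped. Of the 5 members 1, Tmem132b, was past the threshold (edgeR adjusted p below 0.05), where 0.359% of the 19494 tested genes were (70 genes; 0.144% higher and 0.215% lower in mutant libraries), and nothing is read from this count, since the family was chosen for that gene. Likewise the groups did not overlap for 1 of 5 members, against 6.17% of tested genes (3.23% higher in mutant libraries and 2.94% lower). Log2 fold changes were positive in 4 of 5 members and in 48.4% of tested genes, with a median of 0.26 over the members and -0.01 over tested genes. This count and median include Tmem132b, whose sign came with the choice of the family. Tmem132a, Tmem132c, Tmem132d and Tmem132e had log2 fold changes of 0.34, 0.23, 0.26 and -0.07, and none of these passed.

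Tmem132b held 3586, 5253, 7914 and 6282 counts in mutant 1 to 4, against 1991, 1204, 2512 and 2217 counts in wild type 5 to 8. After scaling these were 117, 207, 154 and 170 CPM in mutant 1 to 4 and 51.2, 46.9, 71.8 and 56.1 CPM in wild type 5 to 8. The lowest mutant library, mutant 1, stood 1.63 times above the highest wild type library, wild type 7. The means were 162 ± 37.1 CPM in mutant and 56.5 ± 10.9 CPM in wild type libraries (SD, n = 4 each), a ratio of 2.87 and a fitted log2 fold change of 1.52 (SE 0.179). By size of fold change it stood in place 146 of 19494 tested genes. In sorted bulk cells a larger share of cells that express a gene and more RNA per cell cannot be told apart. Markers of inhibitory neurons had positive log2 fold changes in 6 of the 6 that could be tested, against 48.4% of tested genes. None of them passed. The unadjusted edgeR p was under 0.05 for 2 of the 6, Slc6a5 and Gad1, against 12.5% of tested genes. The groups did not overlap for 1 of the 6, against 6.17% of tested genes. This was Slc6a5, at 30.1 CPM in mutant and 17.5 CPM in wild type libraries (edgeR adjusted p = 0.266). The remaining marker, Ptf1a, was not tested and went the other way, at 0.115 CPM in mutant and 0.348 CPM in wild type libraries. Every one of the 7, Ptf1a with the fewest counts, was counted in all libraries. The summed level of these 7 markers was 45.02, 105, 63.6 and 99.98 CPM in mutant 1 to 4. It was 34.7, 31.8, 48.9 and 59.1 CPM in wild type 5 to 8. Mutant 1 and mutant 2, the lowest and the highest of the mutants in this sum, were so for Tmem132b as well. The sum of mutant 1 lay below those of wild type 7 and wild type 8, where Tmem132b was lower than in mutant 1. The part of these markers in the Tmem132b difference was not tested.

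**Figure D1:**
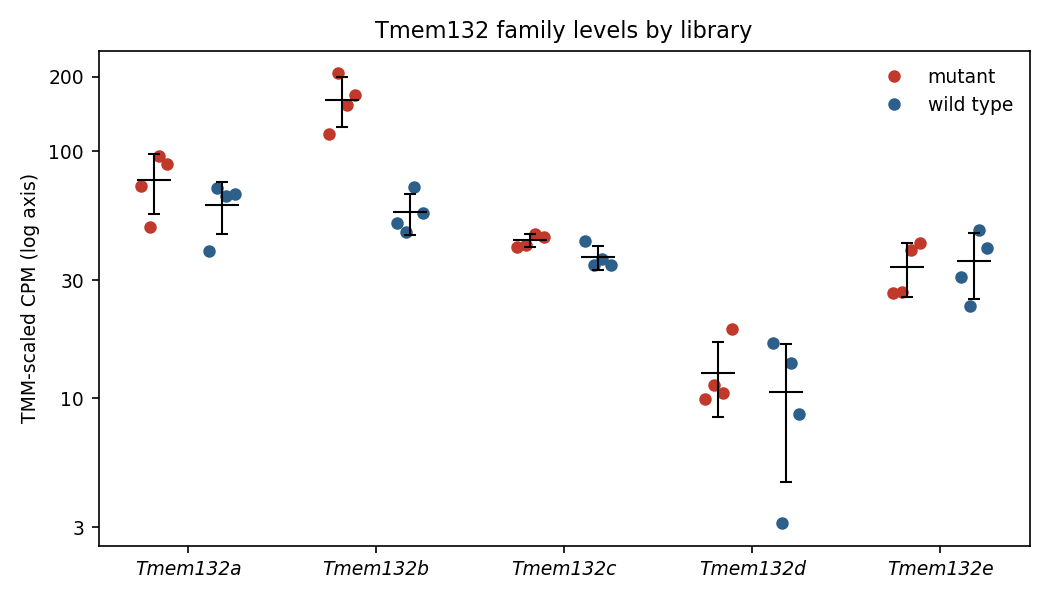
TMM-scaled CPM (log axis) of the 5 Tmem132 genes, with 1 point per library, mutant left of wild type, and horizontal bars with whiskers for the mean ± SD (n = 4 each). The Tmem132b points lie between 117 and 207 CPM in mutant and between 46.9 and 71.8 CPM in wild type libraries, while the points of each other member overlap between groups.

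Tmem132c, the chromosome 5 neighbour of Tmem132b within the family, was the most even member. It stood at 41.1, 41.9, 46.3 and 45.1 CPM in mutant 1 to 4 and at 43.3, 34.5, 36.7 and 34.5 CPM in wild type 5 to 8. Wild type 5 lay inside the mutant range, and the other wild type libraries lay below it. It did not pass, with an edgeR adjusted p of 0.430 at a log2 fold change of 0.23 (SE 0.111), and the two-sided permutation p was 0.0857 by exact enumeration. Its coefficient of variation (CV, the SD as a share of the mean) was 5.79% in mutant libraries, lower than in all but 8.14% of the 2665 tested genes of like level (average log2 CPM within 0.5), and 11.1% in wild type libraries. The antisense gene Tmem132cos lies inside Tmem132c and shares none of its annotated exon bases. Tmem132cos averaged 3.08 CPM in mutant and 2.94 CPM in wild type libraries (log2 fold change 0.06, edgeR adjusted p = 0.959).

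Tmem132d, the lowest member, had 303, 286, 538 and 703 counts in mutant 1 to 4 and 648, 80, 483 and 341 counts in wild type 5 to 8. This corresponds to 9.92, 11.3, 10.5 and 19.0 CPM in mutant 1 to 4 and 16.7, 3.12, 13.8 and 8.63 CPM in wild type 5 to 8. Mutant 4 was the highest library and wild type 6 the lowest, and the wild type libraries spanned a ratio of 5.35. The exact 95% counting interval of the unscaled level was 2.56 to 4.02 CPM in wild type 6, from 80 counts. The wild type CV of 56.6% exceeded that of 98.5% of the 2271 tested genes of like level. The edgeR adjusted p was 0.837 at a log2 fold change of 0.26 (SE 0.435), and exact enumeration gave a two-sided p of 0.6. The sign turned without mutant 4 (-0.0029) or wild type 6 (-0.041).

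Tmem132e, the deafness-associated member in humans, stood at 26.6, 27.0, 39.8 and 42.6 CPM in mutant 1 to 4 and at 31.1, 23.6, 47.8 and 40.6 CPM in wild type 5 to 8. Both groups held libraries below 32 CPM and libraries above 39 CPM, and their ranges overlapped. It did not pass (edgeR adjusted p = 0.920; exact permutation p, two-sided, 0.743), at a log2 fold change of -0.07 (SE 0.228) and an approximate 95% interval from -0.52 to 0.37. The sign turned without mutant 1 (0.031), mutant 2 (0.024) or wild type 7 (0.10).

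Tmem132a, the member that binds Wntless, stood at 72.1, 49.2, 96.0 and 88.7 CPM in mutant 1 to 4 and at 39.4, 70.9, 65.8 and 66.8 CPM in wild type 5 to 8. Wild type 5 was far below the other wild type libraries, and mutant 2 far below the other mutants. It did not pass (edgeR adjusted p = 0.559; exact permutation p, two-sided, 0.2), at a log2 fold change of 0.34 (SE 0.226) and an approximate 95% interval from -0.11 to 0.78. The log2 fold change was 0.17 without wild type 5 and 0.21 without mutant 3. Tmem132a meets the oppositely oriented gene Slc15a3, which encodes a lysosomal peptide and histidine transporter, at its 3′ end. Their annotated exons share 1541 bases, or 33.9% of the exon bases of Tmem132a and 28.1% of those of Slc15a3. Without strand the reads of these bases cannot be assigned to either gene. Slc15a3 stood at 55.3, 35.8, 84.5 and 62.9 CPM in mutant 1 to 4 and at 26.6, 52.9, 48.5 and 48.9 CPM in wild type 5 to 8, so that mutant 2 and wild type 5 were the lowest of their groups for both genes. The part of shared reads in either level was not tested.

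**Figure D2:**
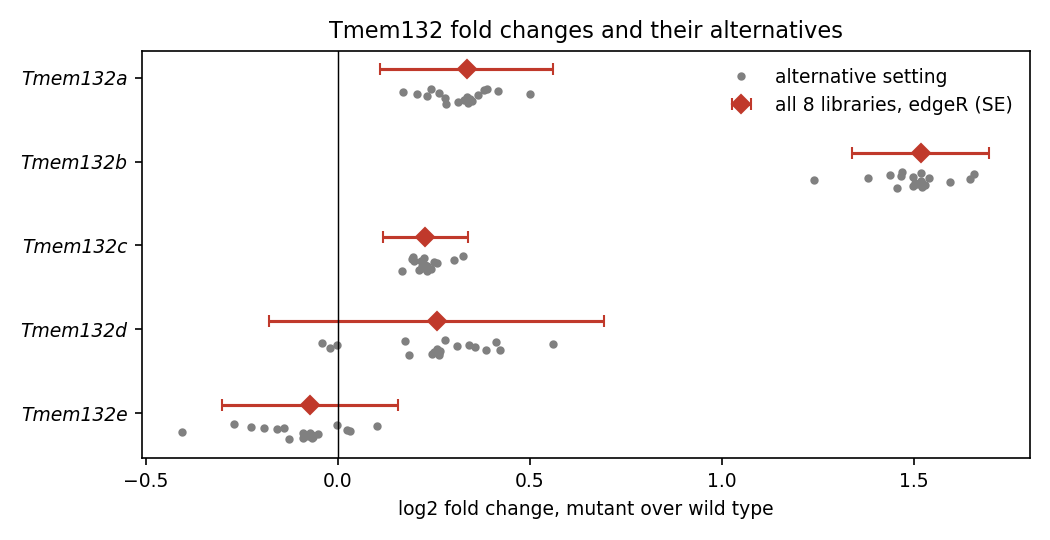
Fitted log2 fold change of each Tmem132 gene, mutant over wild type, with its SE (red diamonds) and the values under 19 alternative settings (grey points). Alternatives for Tmem132b run from 1.24 to 1.66, and those for Tmem132d and Tmem132e lie on both sides of 0.

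Per kilobase of the gene length given in the table, the members could be ordered by level. In wild type libraries Tmem132a was highest, at 14.9 ± 3.54 CPM per kb (SD, n = 4), followed by Tmem132e at 7.87 ± 2.34, Tmem132b at 6.86 ± 1.32, Tmem132c at 6.37 ± 0.709 and Tmem132d at 2.47 ± 1.40 CPM per kb. The wild type ranges of Tmem132e, Tmem132b and Tmem132c overlapped one another, and Tmem132b was above Tmem132c in 2 of 4 wild type libraries. Tmem132a was above every other member in all 4 wild type libraries, although its range overlapped that of Tmem132e. Tmem132d was the lowest in each wild type library and its range met no other. In mutant libraries Tmem132b stood at 19.7 ± 4.50 and Tmem132a at 18.8 ± 5.11 CPM per kb (SD, n = 4 each), with overlapping ranges. Tmem132e at 7.48 ± 1.85, Tmem132c at 7.45 ± 0.431 and Tmem132d at 2.96 ± 0.995 CPM per kb followed, and Tmem132b was above Tmem132c and Tmem132e in all 4 mutant libraries. Among tested genes, the wild type level per kb of Tmem132a exceeded 80.9% and that of Tmem132d 40.4%.

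Tmem132b made up 35.1% ± 8.30 of the summed family level per kb in mutant libraries and 17.7% ± 1.38 in wild type libraries (SD, n = 4 each). Its share was highest in mutant 2, at 47.4%. The whole family summed to 47.2, 52.9, 61.4 and 63.9 CPM per kb in mutant 1 to 4 and to 34.0, 34.9, 44.9 and 40.1 CPM per kb in wild type 5 to 8. Without Tmem132b the sums were 32.9, 27.8, 42.7 and 43.3 CPM per kb in mutant 1 to 4 and 27.8, 29.2, 36.2 and 33.3 CPM per kb in wild type 5 to 8. The groups did not overlap in the sum with Tmem132b and overlapped in the sum without it. The larger share of Tmem132b and the separation of the whole sum hold the gene that chose the family. Nothing is read from them about the family.

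**Figure D3:**
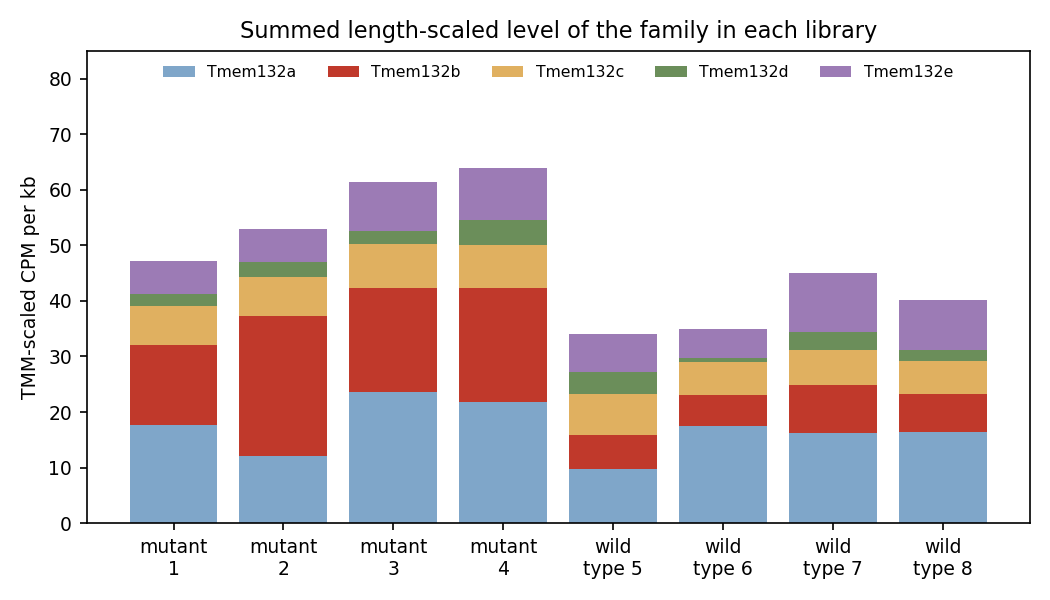
Summed level of the Tmem132 family in each library in TMM-scaled CPM per kb, stacked by gene, with mutant libraries on the left. The family sums to 47.2 to 63.9 in mutant and 34.0 to 44.9 in wild type libraries, and the red Tmem132b segment is larger in every mutant library than in any wild type library.

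The genes whose profile over the 8 libraries was most like that of Tmem132b were sought among 11896 tested genes, by the root mean square difference of log2 CPM after each gene's mean was removed. The closest was Rasgrf1, a calcium-responsive Ras exchange factor (0.211 on the log2 scale, where Tmem132b itself spanned 2.14). Next came Slc6a17, a vesicular amino acid transporter (0.234), Cacna1g, a T-type calcium channel subunit (0.240), Syt7, a synaptic calcium sensor (0.241), and Irak1bp1, a protein that binds the kinase IRAK1 (0.243). Since the measure uses all 8 libraries, likeness to Tmem132b includes a shared difference between the groups, and these values carry no test. Rasgrf1 stood at 3.01, 6.81, 5.34 and 5.59 CPM in mutant 1 to 4 and at 1.44, 1.71, 3.06 and 2.02 CPM in wild type 5 to 8. As for Tmem132b, mutant 2 was the highest library, mutant 1 the lowest mutant and wild type 7 the highest wild type library, here just above mutant 1. Syt7 shared that order at the top, with 39.7 CPM in mutant 2 and 21.0 CPM in wild type 7.

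For the other members, the gene most like Tmem132a was Slc15a3, its overlapping neighbour, at 0.103 on the log2 scale, followed by the intramembrane protease gene Sppl2b at 0.131. Tmem132c was closest to Zgpat (0.0505) and the Arf exchange factor gene Cyth1 (0.0673). Tmem132d was closest to the heparan sulfatase gene Sulf1 (0.328) and to Tspoap1 (0.400), and Sulf1 also had its lowest level in wild type 6, at 9.38 CPM. Tmem132e was closest to Cxxc4, which encodes a Dishevelled-binding protein (0.124), and to the potassium channel gene Kcnk2 (0.124). These 4 members had different nearest genes, and no other member was among them. Only 2 of 11896 genes were kept for each member, so nothing is read from this.

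**Figure D4:**
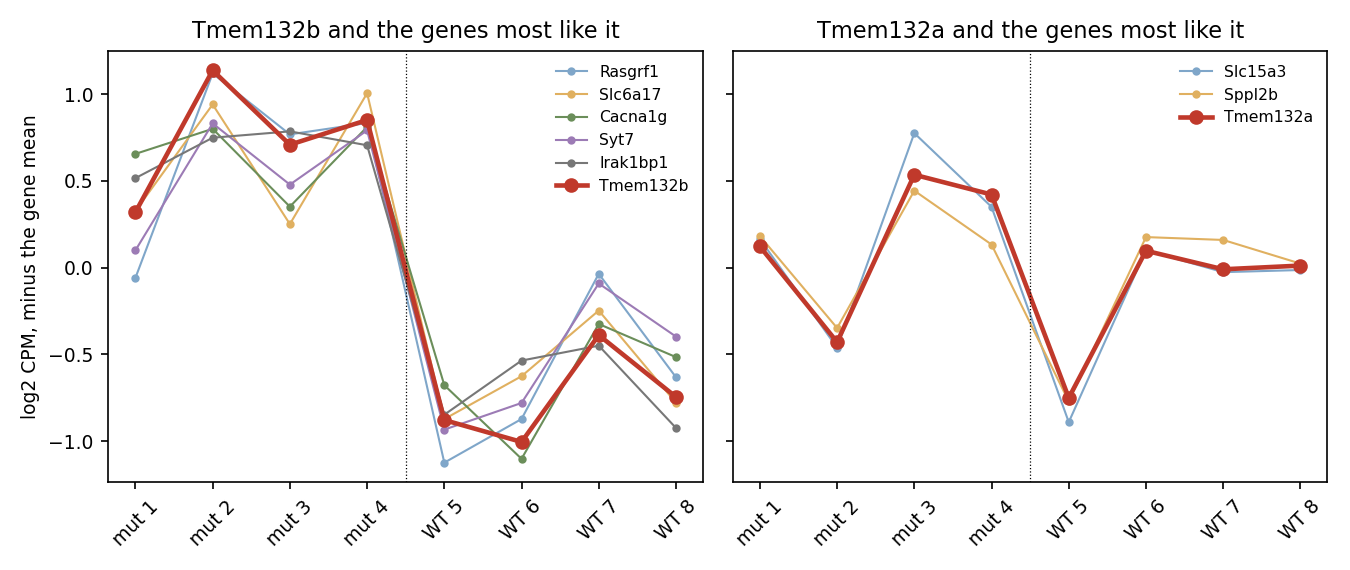
Log2 CPM minus the gene's mean over 8 libraries (mut, mutant; WT, wild type), for Tmem132b with its 5 most similar genes (left) and Tmem132a with its 2 (right). Mutant 2 is the highest point of Tmem132b, and wild type 5 is the lowest point of both Tmem132a and Slc15a3.

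To see whether the Tmem132b difference extended along the chromosome, genes within 500 kb of each member were examined. Of 41 tested neighbours none passed by edgeR, where 0.359% of tested genes did. There were 8 of the 41 with an unadjusted edgeR p under 0.05, against 12.5% of tested genes. DESeq2 called 3 of the 41 and limma-voom 0, against 489 and 69 of all 19494 tested genes. Of the 8 tested neighbours of Tmem132b, 3 had a positive log2 fold change, and the median was -0.14. At higher coordinates the nearest tested gene was Gm4868, 55369 bases away, with 1.31 CPM in mutant and 0.555 CPM in wild type libraries (log2 fold change 1.22, edgeR adjusted p = 0.303). At lower coordinates the nearest, Aacs, encodes acetoacetyl-CoA synthetase and ends 14364 bases before Tmem132b. It stood at 19.6, 20.7, 18.8 and 18.3 CPM in mutant 1 to 4 and at 32.7, 23.8, 22.9 and 27.5 CPM in wild type 5 to 8. Aacs was thus lower in every mutant library, against the direction of Tmem132b, but did not pass (edgeR adjusted p = 0.199, log2 fold change -0.47, SE 0.134).

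Between Tmem132c and Tmem132d lie Slc15a4, a lysosomal transporter gene, and Glt1d1, a glycosyltransferase gene, which overlap at their starts on opposite strands. Slc15a4 had a log2 fold change of -0.28 (edgeR adjusted p = 0.395). Glt1d1 stood at 2.91, 3.47, 3.03 and 4.02 CPM in mutant 1 to 4 and at 1.67, 1.44, 2.15 and 1.59 CPM in wild type 5 to 8, without overlap (log2 fold change 0.97, SE 0.223, edgeR adjusted p = 0.102). Glt1d1 passed with DESeq2, with limma-voom with quality weights and without mutant 1. Beyond Tmem132d, 5930412G12Rik, 146029 bases away, had 6.28 CPM in mutant and 9.65 CPM in wild type libraries (log2 fold change -0.62, edgeR adjusted p = 0.294). Next to it, the Wnt receptor gene Fzd10 had a log2 fold change of -0.61 (edgeR adjusted p = 0.459) and passed as lower without mutant 1 (-1.03). Near Tmem132e, the acid-sensing channel gene Asic2 had a log2 fold change of 0.74 and the chaperonin gene Cct6b one of 0.54 (edgeR adjusted p = 0.270 and 0.650). Near Tmem132a, Tmem109 and the ESCRT gene Vps37c had -0.21 and -0.08 (edgeR adjusted p = 0.542 and 0.892). Syt7, the gene among those most like Tmem132b, lies 404642 bases from Tmem132a, on another chromosome than Tmem132b. Its log2 fold change was 1.09 (SE 0.208, edgeR adjusted p = 0.0560), and it passed without mutant 1 (0.00907) or wild type 7 (0.0301), with DESeq2 and under other settings.

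**Figure D5:**
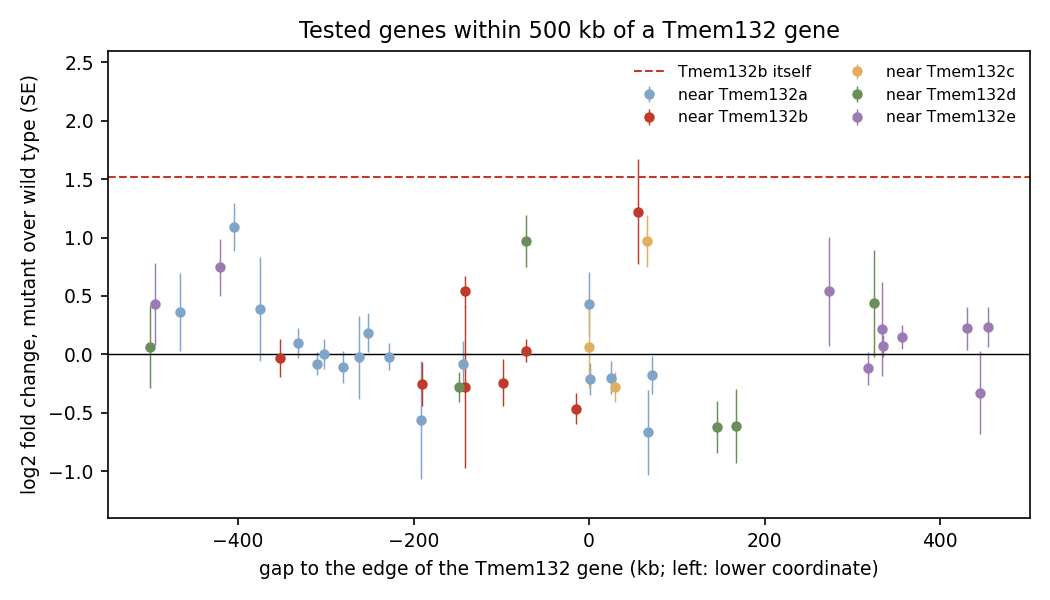
Log2 fold change, mutant over wild type (points, with SE), of the tested genes within 500 kb of each Tmem132 gene, against the gap to the edge of that gene in kb, with genes that overlap it at 0. The dashed line marks Tmem132b at 1.52, above the point of every tested neighbour.

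The GABA-A receptor list, with receptor subunits and the proteins that assemble or anchor them, had 22 genes, of which 19 were tested. None passed by edgeR, where 0.359% of tested genes did. DESeq2 called 2 of the 19 and limma-voom 0, against 489 and 69 of all 19494 tested genes. The unadjusted edgeR p was under 0.05 for 5 of the 19, against 12.5% of tested genes. Log2 fold changes were positive in 16 of 19, against 48.4% of all tested genes, with a median of 0.29. The groups did not overlap for 2 of 19, against 6.17% of tested genes. The alpha subunit gene Gabra4 stood at 23.3, 26.4, 23.6 and 25.9 CPM in mutant 1 to 4 and at 12.03, 18.6, 16.5 and 15.6 CPM in wild type 5 to 8 (log2 fold change 0.66, SE 0.143, edgeR adjusted p = 0.0869). The beta subunit gene Gabrb1 stood at 10.9, 15.8, 11.4 and 13.1 CPM in mutant 1 to 4 and at 5.40, 5.18, 8.78 and 7.87 CPM in wild type 5 to 8 (log2 fold change 0.91, SE 0.206, edgeR adjusted p = 0.0982). Both were higher in every mutant library, and both passed with DESeq2, with limma-voom with quality weights, without a filter on low counts and without mutant 1. Gabra5 and Shisa7, an auxiliary subunit gene, also passed without mutant 1, the mutant library in which they were lowest, at 2.16 and 18.6 CPM. Markers of inhibitory neurons, which also express such receptors, had the values given above, and none of them passed. The part of inhibitory neurons in the values of this list was not tested.

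The Wnt secretion list, with Wntless, Porcupine, GRP78 and the Wnt ligands, had 20 genes, of which 16 were tested. None passed by edgeR, DESeq2 or limma-voom, and the unadjusted edgeR p was under 0.05 for 2 of the 16, which is the 12.5% of all tested genes. The groups did not overlap for 2 of 16, with Wnt4 higher and Wnt9a lower in mutant libraries, against 6.17% of tested genes. Log2 fold changes were positive in 5 of 16, against 48.4% of tested genes, with a median of -0.19. The smallest p belonged to Wnt3a, at 0.280 ± 0.225 CPM in mutant and 0.925 ± 0.311 CPM in wild type libraries (log2 fold change -1.76, SE 0.545), and to Wnt9a, at 0.711 ± 0.295 and 1.45 ± 0.356 CPM in mutant and wild type libraries (log2 fold change -1.04, SE 0.359; SD, n = 4 each). Their edgeR adjusted p were 0.235 and 0.280. Wls, the Wntless gene and partner of Tmem132a, stood at 64.8, 28.9, 19.8 and 18.3 CPM in mutant 1 to 4 and at 60.8, 64.2, 37.0 and 51.6 CPM in wild type 5 to 8. Mutant 1 stood level with the highest wild type library, wild type 6, and the other mutants lay below every wild type library. Without mutant 1, Wls passed as lower (log2 fold change -1.26, edgeR adjusted p = 0.0123), as did Wnt3a and Wnt5a (0.0418 and 0.0496). Wnt4 and Wnt5a, and Gabra5, Shisa7, Gm4868 and 5930412G12Rik above, were named after their values were seen, and Wls for its role. Hspa5, which encodes GRP78, had a log2 fold change of -0.23 (edgeR adjusted p = 0.529).

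The WAVE complex list had 13 genes, all tested. None passed by edgeR, DESeq2 or limma-voom, the unadjusted edgeR p was under 0.05 for 3 of 13 (12.5% of tested genes), and 7 of 13 log2 fold changes were positive (48.4% of tested genes), with a median of 0.02. Cyfip1, a subunit that links the complex to Rac, stood at 71.1, 56.8, 55.5 and 55.4 CPM in mutant 1 to 4 and at 88.3, 81.1, 68.2 and 73.7 CPM in wild type 5 to 8 (log2 fold change -0.38, SE 0.121, edgeR adjusted p = 0.240). Mutant 1 was the only mutant library inside the wild type range. Wasf1, which encodes the WAVE1 subunit, averaged 86.2 CPM in mutant and 68.2 CPM in wild type libraries (log2 fold change 0.34, SE 0.119, edgeR adjusted p = 0.291). Nckap1, the subunit through which the worm TMEM132 protein acts, averaged 231 ± 24.9 CPM in mutant and 246 ± 51.5 CPM in wild type libraries (SD, n = 4 each; edgeR adjusted p = 0.827), and was named outside the rule for its role.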

How the data were processed

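RNA from 2 ng per sample was made into libraries with the TotalScript kit, with poly-A and random primers and 14 PCR cycles, and run on 3 HiSeq2500 lanes, per the labels' protocols. The authors deposited unnormalised read counts for Ensembl gene identifiers, with a gene length that the file header calls width, a value of another kind. The submitters' processing notes name mm10 as the build and bcl2fastq 1.8.4. Not given in the sources used here are the aligner, counter, annotation and strand setting. Headings give the group and a running number but not the replicate of the sample title, so columns were assigned to groups only. No pair of libraries agreed within sampling noise (lowest chi-square per gene 16.5, between mutant 1 and wild type 6). Mutant 1 had 38.6, 96.3 and 46.4 with mutant 2, mutant 3 and mutant 4. These values are not scaled for total counts.

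The groups were compared in R 4.3.3 with edgeR 4.0.16 over all 19494 genes kept by filterByExpr, with TMM scaling, the robust quasi-likelihood test and a Benjamini-Hochberg adjusted p below 0.05. The biological coefficient of variation was 23.2%. An SE was taken from the fold change and its F statistic, and approximate 95% intervals assume normal error. Exact permutation tests used the 70 splits of 8 libraries, with a smallest p of 0.0286. Clopper-Pearson intervals at 95% cover counting error only. Alternatives used DESeq2 1.42.0, limma 3.58.1 and sva 3.50.0.

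The members and lists were chosen with earlier results of these data known. Named were all members, Hoxa2, Hoxb2 and Hoxb1, list genes past the threshold or else the 2 with the smallest p, the nearest tested gene without a provisional symbol (such as Gm or Rik) on either side of a member, and the 5 (Tmem132b) or 2 genes of most similar profile among genes averaging at least 1 on the log2 CPM scale. Likeness used log2 CPM with a prior count of 2. Hoxb1 stood at 85.9 CPM in mutant and 0.241 CPM in wild type libraries. Results of a further gene are not reported here.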

Additional observations from a re-analysis of the deposited data

Results flagged for a closer look

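In 70 groups of 4 libraries that were checked, 5 held a library farther from its group than Dixon's 95% limit, where chance gives about 1 in 20. The groups are not independent, since Tmem132a and Slc15a3 share exon bases and the Tmem132b share is computed from member counts. Nothing is read from the count of 5. Tmem132a stood at 39.4 CPM in wild type 5, and its overlapping neighbour Slc15a3 at 26.6 CPM in the same library, both below the other wild type libraries. Tmem132d stood at 19.0 CPM in mutant 4, above the other mutants. The Tmem132b share of the family was 47.4% in mutant 2, above the other mutants. Hoxb2 stood at 46.6 CPM in wild type 6, above the other wild type libraries.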

How the results depend on the processing

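Over 19 alternatives the log2 fold change of Tmem132b, which chose the family, was 1.24 to 1.66, a range that supports nothing since every value comes from the same counts. Tmem132a (0.17 to 0.50) and Tmem132c (0.17 to 0.33) stayed positive and did not pass in theirs. Tmem132d ran from -0.041 to 0.56 over single libraries left out and was -0.020 with 1 surrogate variable, and Tmem132e ran from -0.23 to 0.10 over single libraries left out and was -0.41 with 1 surrogate variable and -0.27 with 3 libraries removed. Over all genes 70 passed, against 214 without a low-count filter, 489 with DESeq2, 233 with limma-voom with quality weights and 171 with 3 libraries (mutant 1, wild type 5, wild type 6) removed, which was chosen after seeing the data. With single libraries left out the count ran from 26 to 544. It was 544 when mutant 1 was removed, 33, 36 and 26 on removal of mutant 2, mutant 3 or mutant 4, and 36 and 32 on removal of wild type 5 or wild type 8. GABA-A receptor genes numbered 0, against 2 each without the filter, with DESeq2 and with quality weights, and 0 to 4 with single libraries left out. Wnt secretion genes ran from 0 to 3 (3 without mutant 1). Neighbours within 500 kb numbered 0, against 1 with library size only, 2 without the filter, 3 with DESeq2, 2 with quality weights, 1 with 1 surrogate variable, 1 with those 3 libraries removed, 1 within 1000 kb and 0 to 3 with single libraries left out (3 without mutant 1, 1 without wild type 7). The cause of these shifts was not tested. Without division by gene length Tmem132b made up 49.1% of family counts in mutant and 28.0% in wild type libraries. No paired analysis was possible because the column headings carry no replicate number of the sample titles.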

Other observations

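Within 1000 kb of a member, 1 of 81 tested genes passed, where 0.359% of all tested genes did. AA465934, named after its values were seen, lies on chromosome 11, 845367 bases beyond Tmem132e. It stood at 12.3, 14.5, 20.7 and 16.9 CPM in mutant 1 to 4 and at 2.34, 1.52, 2.32 and 2.33 CPM in wild type 5 to 8, without overlap (log2 fold change 2.91, SE 0.215, edgeR adjusted p = 8.10e-05). Tmem132e itself, at 34.0 ± 8.40 CPM in mutant and 35.8 ± 10.7 CPM in wild type libraries (SD, n = 4 each), did not pass.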
